A study of Mus musculus with 9 samples.

Results

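The genes described here encode RNA polymerase II, the enzyme that makes messenger RNA, and the general factors that place it on promoters and release it into elongation. They were chosen by name among the mouse protein-coding genes: the Polr2 subunits, the Gtf2a, Gtf2b, Gtf2e, Gtf2f and Gtf2h genes, the Taf genes, and Tbp, Cdk7, Ccnh, Mnat1, Ercc2, Ercc3, Cdk9, Ccnt1 and Ccnt2. Taf1a, Taf1b, Taf1c, Taf1d and Taf15 were left out as Taf-named genes outside the TFIID complex. Taf5l and Taf6l, which belong to the SAGA coactivator, met the rule and were kept. The rule uses no measured level, though earlier results of these data were known when it was chosen. It gave 53 genes of the 55335 in the count files. Of these, 49 had enough reads to be tested, and all 53 are accounted for below.

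RNA was sequenced from D2A1-d, an established mouse breast carcinoma cell line. The groups were cells carrying the Med4 short hairpin shMed4 #1 (3 libraries), cells carrying the hairpin shMed4 #4 (3 libraries), and cells carrying a non-targeting control hairpin, NTC (3 libraries). The labels call both hairpin groups Med4 knockdown and the NTC group WT, and list every sample as untreated. All groups were transduced and grown in the same serum medium. Whether each line is 1 clone or a pool, and whether replicates were transduced separately, is not given in the sources used here, and the p-values then speak only of the variation among these 9 libraries, which may be technical.

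RNA polymerase II is built from a large catalytic core, subunits of its own, and a handful of small subunits that it shares with RNA polymerases I and III. TFIID, made of the TATA-binding protein and its associated TAF proteins, recognises the promoter, and TFIIA, TFIIB, TFIIE, TFIIF and TFIIH complete the pre-initiation complex. Mediator, of which the Med4 protein is a subunit of the middle module, bridges DNA-bound activators to this machinery and stimulates phosphorylation of the polymerase tail by the TFIIH kinase.

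Med4 had 40, 35 and 38 reads in the shMed4 #1 libraries, 66, 60 and 50 reads in the shMed4 #4 libraries, and 236, 216 and 204 reads in the NTC libraries. This left 16.6% of the NTC level with shMed4 #1 and 26.3% with shMed4 #4. Between 7572114 and 8582235 reads per library were assigned to genes. Of 14335 genes tested with edgeR's quasi-likelihood test at an adjusted p of 0.05, 41.6% passed with shMed4 #1 against NTC, 55.1% with shMed4 #4 against NTC, and 28.0% between the hairpins. Both hairpin comparisons use the same NTC libraries. Markers of mammary luminal cells summed to 95.9 to 113 CPM (reads of a gene relative to the TMM-scaled library total) with shMed4 #1, 179 to 205 CPM with shMed4 #4 and 24.7 to 26.1 CPM in NTC, nearly all from Krt8 and Krt18, while 4 of the 11 (Cdh1, Pgr, Elf5 and Csn2) had no read. The basal and myoepithelial list summed to 694 to 734 CPM with shMed4 #1, 945 to 1110 CPM with shMed4 #4 and 201 to 221 CPM in NTC, mostly from Acta2, and the fibroblast list to 236 to 253 CPM with shMed4 #1, 229 to 247 CPM with shMed4 #4 and 263 to 297 CPM in NTC. Within the fibroblast list, Col1a1 averaged 46.4 CPM with shMed4 #1, 51.5 CPM with shMed4 #4 and 15.5 CPM in NTC, while Pdgfra averaged 77.1 CPM with shMed4 #1, 60.0 CPM with shMed4 #4 and 128 CPM in NTC. The leukocyte list stayed at or below 6.01 CPM and the endothelial list at or below 4.4 CPM in every library. In bulk RNA, fewer cells of a type and less RNA per cell cannot be told apart, and the part of these marker shifts in the results below was not tested.

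The transcripts of the polymerase and its general factors moved little and in both directions. With shMed4 #1 against NTC, 14 of 49 passed (28.6%, against 41.6% of all genes tested), 8 higher (background 21.8%) and 6 lower (background 19.8%). With shMed4 #4 against NTC, 24 passed (49.0%, against 55.1%), 15 higher (background 27.8%) and 9 lower (background 27.3%). Under upper-quartile scaling the splits were 6 higher and 8 lower with shMed4 #1, and 9 higher and 11 lower with shMed4 #4, so no direction of the whole set is given. Without shMed4 #1 replicate 3, 5 genes were higher with shMed4 #1. The median size of the log2 fold change was 0.131 over the 49 genes with shMed4 #1, against 0.21 over all genes tested, and 0.143 with shMed4 #4, against 0.285. None reached a log2 change of 1 with either hairpin, a size that 12.3% of all genes tested reached.

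Of the 49 genes, 10 passed in the same direction with each hairpin, against 33.3% of all genes tested. Of all genes tested, 17.4% rose with both and 15.8% fell with both. The 6 that rose were Polr2b, Polr2f, Polr2l, Taf5l, Gtf2e2 and Gtf2h5, and the 4 that fell were Polr2c, Taf7, Taf8 and Taf6l. Under upper-quartile scaling these counts were 3 and 6, and they fell to 3 that rose without NTC replicate 1 or NTC replicate 2, and to 2 that fell without shMed4 #1 replicate 3. With the median change of the 25 tested genes on each side removed, only Taf8 of these 10 still passed with both hairpins. Polr2a alone among the 49 passed with opposite signs, as did 0.788% of all genes tested. For 20 of the 49, no comparison passed, against 34.3% of all genes tested.

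**Figure D1:**
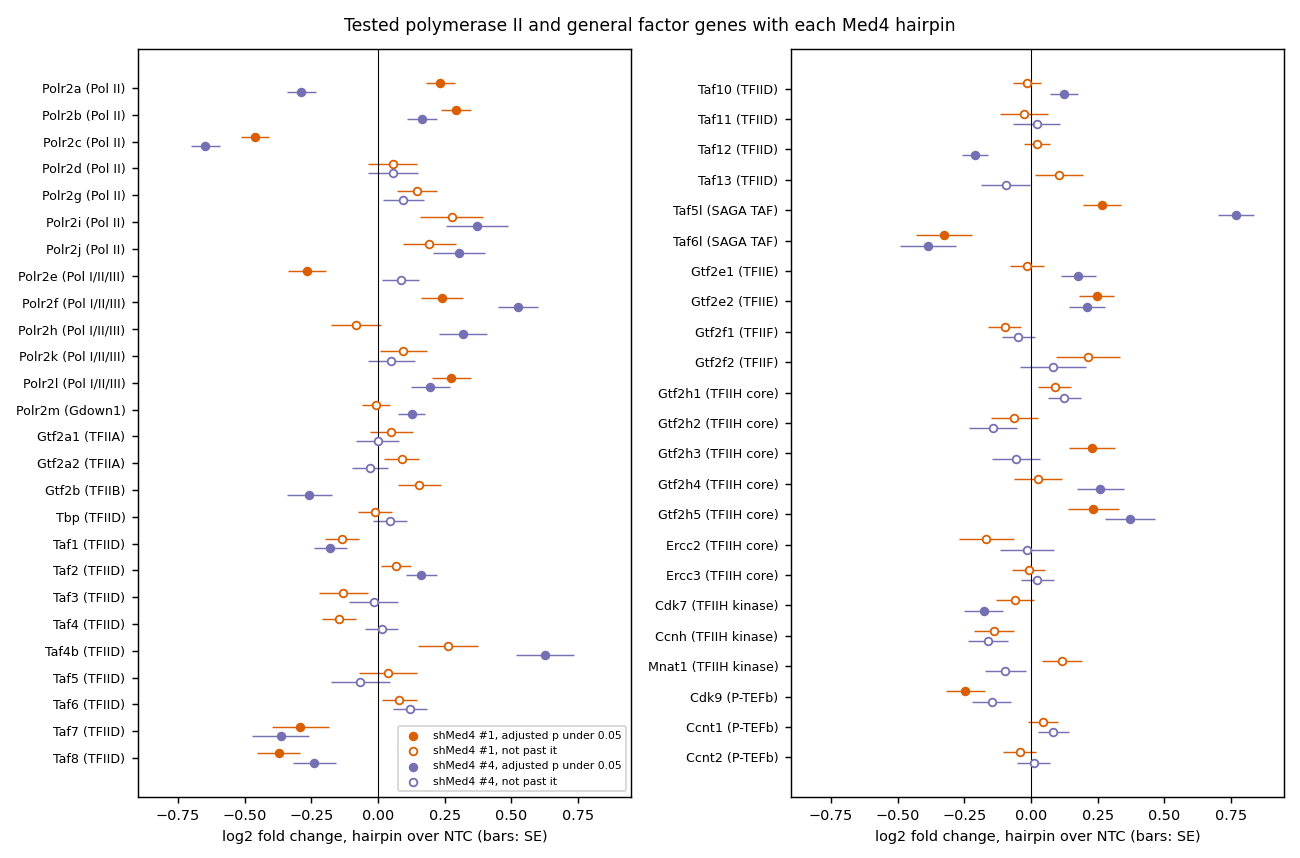
Log2 fold change of the 49 tested genes with shMed4 #1 (orange) and shMed4 #4 (purple), each over NTC, in order of complex. Filled points passed an edgeR adjusted p of 0.05 and bars are standard errors; most points lie within 0.5 of 0, Polr2c is lowest with both hairpins and Taf5l is highest with shMed4 #4.

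Polr2a encodes the largest subunit, which holds much of the active site and carries the repeated C-terminal tail. Its level was 353, 311 and 345 CPM in the shMed4 #1 libraries, 229, 242 and 233 CPM in the shMed4 #4 libraries, and 275, 304 and 280 CPM in the NTC libraries. Every shMed4 #1 library stood above every NTC library and every shMed4 #4 library below them. The log2 fold change against NTC was 0.23 (edgeR adjusted p = 5.21e-04, SE 0.05) with shMed4 #1 and -0.29 (edgeR adjusted p = 2.60e-05, SE 0.05) with shMed4 #4, which is 17.6% higher and 18.1% lower. Between the hairpins themselves it was -0.52 for shMed4 #4 over shMed4 #1 (edgeR adjusted p = 1.02e-09, SE 0.05). The average of both hairpins against NTC was -0.03 (edgeR adjusted p = 0.653), so the average hides a gene that differed in each hairpin line. All 3 calls were kept under every one of the 18 alternative settings. Polr2a lies on chr11:69733997-69758637 on the minus strand (GRCm38), and the 25 tested genes on each side of it had a median log2 change of -0.11 with shMed4 #1 and -0.12 with shMed4 #4.

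Polr2b, the second-largest subunit and partner of Polr2a in the catalytic cleft, rose with both hairpins. Its level was 136, 131 and 125 CPM with shMed4 #1, 123, 118 and 118 CPM with shMed4 #4, and 101, 111 and 108 CPM in NTC. Neither hairpin group overlapped NTC. The log2 fold change was 0.29 with shMed4 #1 (edgeR adjusted p = 5.71e-05, SE 0.06) and 0.16 with shMed4 #4 (edgeR adjusted p = 0.0136, SE 0.06). The shMed4 #4 call was lost without NTC replicate 1 (0.13, edgeR adjusted p = 0.0851), under upper-quartile scaling (0.12, edgeR adjusted p = 0.0714) and with the shift of its neighbours removed (0.07, edgeR adjusted p = 0.311). With shMed4 #4 the 2 catalytic subunits thus moved in opposite directions, Polr2a down and Polr2b up.

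Polr2c, which forms part of the assembly platform of the enzyme, fell furthest among the 49 tested genes with each hairpin. It stood at 123, 125 and 121 CPM with shMed4 #1, at 107, 107 and 110 CPM with shMed4 #4, and at 164, 166 and 177 CPM in NTC. The 3 groups did not overlap. The log2 fold change was -0.46 with shMed4 #1 (edgeR adjusted p = 4.49e-09, SE 0.05) and -0.65 with shMed4 #4 (edgeR adjusted p = 5.93e-13, SE 0.05), and -0.19 for shMed4 #4 over shMed4 #1 (edgeR adjusted p = 0.00978, SE 0.06). Polr2c lies on chr8:94857450-94873535 (GRCm38, plus strand), where the 25 tested genes on each side had a median log2 change of -0.58 with shMed4 #1 and -0.72 with shMed4 #4. With that local shift taken out, the Polr2c values were 0.12 (edgeR adjusted p = 0.0762) and 0.07 (edgeR adjusted p = 0.308), and the difference between hairpins was -0.05. Of its exon bases, 18.1% lie opposite exons of Dok4, which had log2 changes of -0.44 with shMed4 #1 and -0.60 with shMed4 #4. What part the neighbours' shift or the overlap has in the Polr2c values was not tested.

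The promoters of 3 polymerase genes are shown because they differ in the direction of their genes: Polr2a went opposite ways with the hairpins, Polr2c fell with both and Polr2l rose with both. Each sequence is 150 bases, reaching 160 to 11 bases before the RefSeq transcription start (GRCm38.p6, 5′ to 3′ along the gene). Capitals mark matches on either strand. The motifs searched were the TATA box, read as TATAAA, at which the TATA-binding protein can bind, and the GC box, read as GGGCGG, known as a site of the Sp family. They also included the CCAAT box, read by its own letters, the ETS core, read as CCGGAA and known from promoters of housekeeping genes, and the cAMP response element, read as TGACGTCA.
Polr2a (chr11:69758644-69758793, minus strand): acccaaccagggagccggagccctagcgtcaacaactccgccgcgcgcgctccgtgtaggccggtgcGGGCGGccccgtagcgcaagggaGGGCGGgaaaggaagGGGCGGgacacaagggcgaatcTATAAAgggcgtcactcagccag
Polr2c (chr8:94857290-94857439, plus strand): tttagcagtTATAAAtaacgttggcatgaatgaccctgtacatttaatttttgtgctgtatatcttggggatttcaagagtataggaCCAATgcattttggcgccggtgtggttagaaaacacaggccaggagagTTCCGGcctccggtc
Polr2l (chr7:141475164-141475313, minus strand): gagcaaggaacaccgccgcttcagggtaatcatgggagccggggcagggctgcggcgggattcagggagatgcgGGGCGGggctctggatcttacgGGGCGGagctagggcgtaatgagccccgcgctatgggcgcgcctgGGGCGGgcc
Polr2a had a TATA box 33 to 28 bases before its start, at the usual distance for such a box, with 3 GC boxes upstream of it. The Polr2c TATA letters lay 151 to 146 bases before its start, and an ETS core on the opposite strand lay 25 to 20 bases before it. Polr2l had 3 GC boxes and none of the other motifs in this window.

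Promoter sequences were found in RefSeq for 44 of the 53 genes. In the 250 bases before the start, 30 of the 44 (68.2%) held a GC box, against 35.4% of 27025 mouse genes with a RefSeq promoter. An ETS core was present in 19 (43.2%), against 13.6%, a TATA box in 9 (20.5%), against 14.3%, and a CCAAT box in 15 (34.1%), against 37.5%. The cAMP response element was found in 2 (4.55%), against 1.77%. Each motif was counted on its own on both strands, whether or not it overlapped another. A gene counted if any of its starts had the motif. The background was not limited to genes expressed in these cells, so the shares do not set these genes apart from other expressed genes. A match describes the letters and is not evidence of a bound factor.

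Among the other subunits that belong to polymerase II alone, Polr2i and Polr2j rose with shMed4 #4. Polr2i, a small subunit at the tip of the jaw involved in start site choice and proofreading in yeast, was at 15.3, 15.2 and 14.1 CPM with shMed4 #1, at 16.3, 15.6 and 15.7 CPM with shMed4 #4, and at 11.8, 12.4 and 12.6 CPM in NTC. All 6 hairpin libraries were above the 3 NTC libraries. The log2 fold change was 0.37 with shMed4 #4 (edgeR adjusted p = 0.0073, SE 0.12), and with shMed4 #1 it was 0.28 (edgeR adjusted p = 0.0597, SE 0.12), which did not pass. Of its exon bases, 26.8% lie opposite Tbcb, which had log2 changes of 0.18 with shMed4 #1 and 0.31 with shMed4 #4; the counts are not known to be strand-specific, so reads of the pair cannot be told apart there. Polr2j, a partner of Polr2c in assembly, had a log2 change of 0.30 with shMed4 #4 (edgeR adjusted p = 0.00884, SE 0.10) and 0.19 with shMed4 #1 (edgeR adjusted p = 0.122, SE 0.10). The Polr2j call was lost without NTC replicate 2 (0.20, edgeR adjusted p = 0.118) or shMed4 #4 replicate 1 (0.17, edgeR adjusted p = 0.156), and with the neighbours' shift removed (0.18, edgeR adjusted p = 0.131). Polr2d and Polr2g, which form the stalk of the enzyme, passed in no comparison, with log2 changes of 0.05 and 0.14 for shMed4 #1 and of 0.05 and 0.09 for shMed4 #4.

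Of the 5 subunits shared with polymerases I and III, Polr2f and Polr2l rose with both hairpins. Polr2f, a small subunit at the base of the clamp, was at 43.7, 47.7 and 48.5 CPM with shMed4 #1, at 59.6, 52.6 and 58.4 CPM with shMed4 #4, and at 38.1, 38.1 and 42.3 CPM in NTC. The 3 groups did not overlap. Its log2 fold change was 0.24 with shMed4 #1 (edgeR adjusted p = 0.0118, SE 0.08) and 0.53 with shMed4 #4 (edgeR adjusted p = 2.31e-07, SE 0.08), and 0.29 for shMed4 #4 over shMed4 #1 (edgeR adjusted p = 0.0029, SE 0.07). The shMed4 #1 call was lost without NTC replicate 1 (0.21, edgeR adjusted p = 0.0546), NTC replicate 2 (0.21, edgeR adjusted p = 0.0551) or shMed4 #1 replicate 3 (0.21, edgeR adjusted p = 0.0578), and with the neighbours' shift of 0.20 removed (0.04). Of the Polr2f exon bases, 9.44% lie opposite 1700088E04Rik, which had log2 changes of 0.19 with shMed4 #1 and 0.29 with shMed4 #4. Polr2l, a zinc-binding subunit at the assembly platform whose promoter with 3 GC boxes is printed above, was at 64.1, 61.0 and 57.0 CPM with shMed4 #1, at 62.0, 57.0 and 53.3 CPM with shMed4 #4, and at 46.9, 49.7 and 53.8 CPM in NTC. One shMed4 #4 library fell below the highest NTC library. The log2 fold change of Polr2l was 0.28 with shMed4 #1 (edgeR adjusted p = 0.00238, SE 0.07) and 0.20 with shMed4 #4 (edgeR adjusted p = 0.0232, SE 0.07). The shMed4 #4 call did not hold without NTC replicate 1 (0.15, edgeR adjusted p = 0.127), NTC replicate 2 (0.19, edgeR adjusted p = 0.060) or shMed4 #4 replicate 1 (0.15, edgeR adjusted p = 0.127), or with the neighbours' shift removed (0.06, edgeR adjusted p = 0.513), and 23.2% of the Polr2l transcript has a near-identical copy elsewhere.

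Polr2e and Polr2h, also shared by the polymerases, differed between the hairpins. Polr2e, which lies at the jaw near the incoming DNA, was at 46.2, 49.97 and 48.3 CPM with shMed4 #1, at 65.6, 62.9 and 55.8 CPM with shMed4 #4, and at 57.7, 55.8 and 60.3 CPM in NTC. It fell with shMed4 #1 (log2 change -0.27, edgeR adjusted p = 0.00277, SE 0.07) and was at 0.08 with shMed4 #4 (edgeR adjusted p = 0.314, SE 0.07), a difference of 0.35 (edgeR adjusted p = 2.17e-04, SE 0.07). With the neighbours' shift of -0.22 removed, the shMed4 #1 value was -0.04 (edgeR adjusted p = 0.685). Polr2h, an RNA- and DNA-binding fold on the surface of the enzyme, was at 28.3, 24.4 and 26.8 CPM with shMed4 #1, at 37.4, 34.4 and 33.2 CPM with shMed4 #4, and at 31.3, 25.7 and 27.1 CPM in NTC. Only the shMed4 #4 libraries stood apart, above all 6 others. The log2 change of Polr2h was 0.32 with shMed4 #4 (edgeR adjusted p = 0.0029, SE 0.09) and -0.08 with shMed4 #1 (edgeR adjusted p = 0.519, SE 0.09), and 0.40 for shMed4 #4 over shMed4 #1 (edgeR adjusted p = 8.15e-04, SE 0.09). With the neighbours' shift of 0.14 removed, the shMed4 #4 value of Polr2h was 0.18 (edgeR adjusted p = 0.0959). Polr2k, a small zinc-binding subunit, passed in no comparison, with log2 changes of 0.09 and 0.05 for shMed4 #1 and shMed4 #4.

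Across the 12 subunits, 4 rose and 2 fell with shMed4 #1, and 6 rose and 2 fell with shMed4 #4. That is 50% called with shMed4 #1, where 41.6% of all genes tested were, and 66.7% with shMed4 #4, where 55.1% were. Their median log2 change was 0.168 with shMed4 #1 and 0.13 with shMed4 #4, against -0.008 and -0.013 over all genes tested. Regardless of sign, the median size was 0.236 with shMed4 #1 and 0.242 with shMed4 #4, against 0.21 and 0.285 over all genes tested. Per kilobase of exon sequence, the NTC mean ran from 10.1 CPM for Polr2i to 59.3 CPM for Polr2k. Polr2a was next at 40.5 CPM, then Polr2g at 35.7 CPM and Polr2c at 32.2 CPM. The length joins the exons of all annotated transcripts of a gene, so this order depends on the annotation. Of the Polr2k transcript, 29.5% has near-identical copies elsewhere. The Polr2a mean per kilobase was 47.6 ± 3.14 CPM with shMed4 #1, 33.2 ± 0.998 CPM with shMed4 #4 and 40.5 ± 2.23 CPM in NTC (SD, n = 3 each). Polr2m, which encodes Gdown1, a polymerase-bound negative regulator that opposes TFIIF, was higher per kilobase than any of the 12, at 86.9 CPM with shMed4 #1, 95.3 CPM with shMed4 #4 and 87.4 CPM in NTC. Polr2m was at 237, 230 and 226 CPM with shMed4 #4, against 201, 219 and 211 CPM with shMed4 #1 and 210, 217 and 208 CPM in NTC. Its log2 change was 0.13 with shMed4 #4 (edgeR adjusted p = 0.0333, SE 0.05), which was lost in 7 of the 18 alternatives and was -0.05 with the neighbours' shift removed. Those 7 included leaving out NTC replicate 1 (0.12), NTC replicate 3 (0.12), shMed4 #4 replicate 1 (0.12) or shMed4 #4 replicate 2 (0.14). The hairpins differed by 0.13 (edgeR adjusted p = 0.0438, SE 0.05), a call lost in 11 of the 18, among them without NTC replicate 2, shMed4 #1 replicate 1, shMed4 #1 replicate 3, shMed4 #4 replicate 1 or shMed4 #4 replicate 2 (0.11 to 0.14).

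**Figure D2:**
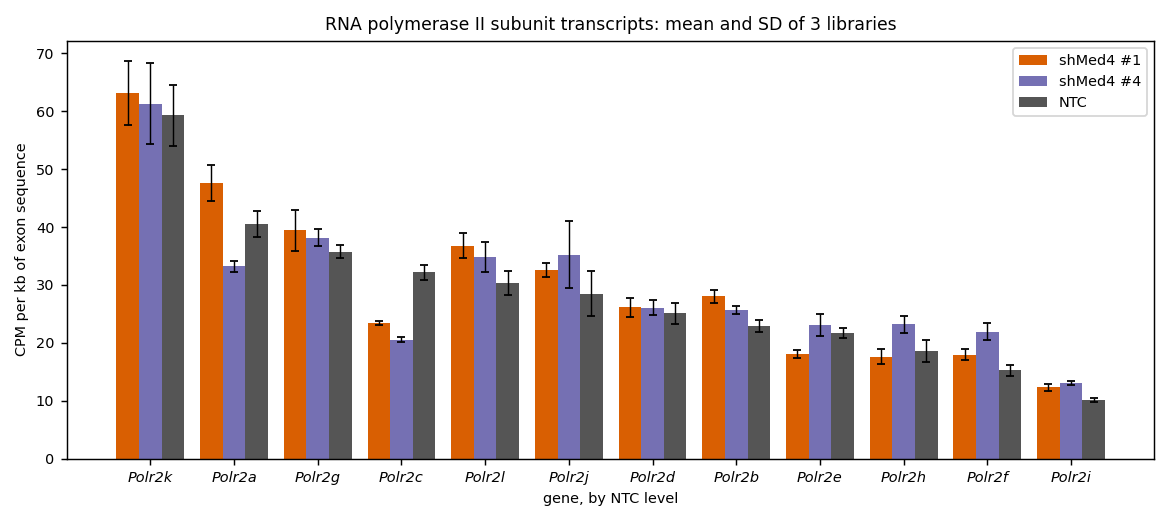
Mean level of the 12 polymerase II subunit transcripts in CPM per kilobase of exon sequence, ordered by NTC level, with bars for shMed4 #1, shMed4 #4 and NTC and error bars of 1 SD (3 libraries each). The span from Polr2k, at 59.3 in NTC, to Polr2i, at 10.1 in NTC, is far larger than any difference between the groups.

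**Figure D3:**
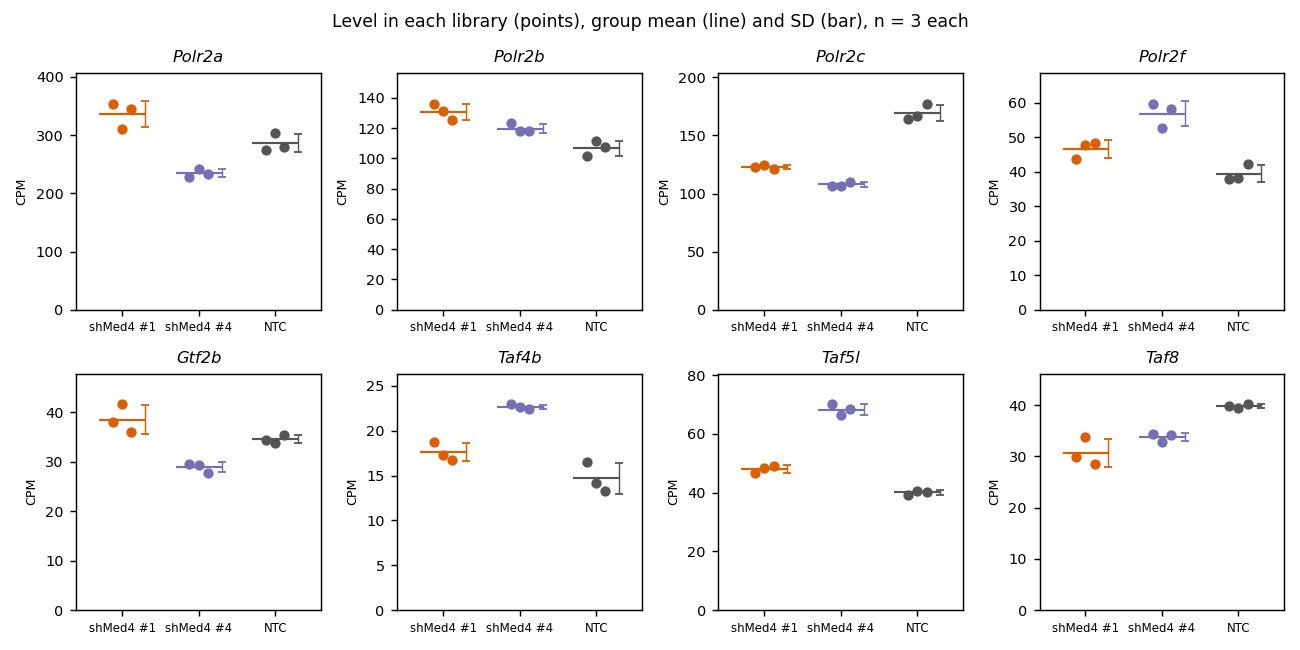
Level in CPM in each library (points), group mean (line) and SD (bar) for 8 genes, with shMed4 #1, shMed4 #4 and NTC from left to right. Polr2a lies above NTC with shMed4 #1 and below it with shMed4 #4, Polr2c is below NTC with both, and Polr2b, Polr2f and Taf5l are above NTC with both.

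TFIIB, TFIIA, TFIIE and TFIIF are the smaller initiation factors. Gtf2b encodes TFIIB, which links the TATA-binding protein to the polymerase and helps set the start site. It was at 38.0, 41.6 and 36.0 CPM with shMed4 #1, at 29.5, 29.4 and 27.8 CPM with shMed4 #4, and at 34.4, 33.8 and 35.5 CPM in NTC. As with Polr2a, the shMed4 #1 libraries were above all NTC libraries and the shMed4 #4 libraries below them. The log2 change was -0.26 with shMed4 #4 (edgeR adjusted p = 0.00944, SE 0.08), while with shMed4 #1 it was 0.16 (edgeR adjusted p = 0.123, SE 0.08). The call was lost with the DESeq2 Wald test (-0.25, adjusted p = 0.0645). The hairpins differed by -0.41 (shMed4 #4 over shMed4 #1, edgeR adjusted p = 1.85e-04, SE 0.08). The neighbours of Gtf2b on chromosome 3 had a median log2 change of -0.52 with shMed4 #4 and -0.12 with shMed4 #1. With those shifts taken out, Gtf2b passed as higher with shMed4 #4 (0.26, edgeR adjusted p = 0.00976) and with shMed4 #1 (0.27, edgeR adjusted p = 0.00782). The difference between the hairpins was then -0.01 (edgeR adjusted p = 0.949).

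TFIIE recruits and stimulates TFIIH, and its genes rose, Gtf2e2 with both hairpins and Gtf2e1 with shMed4 #4. Gtf2e2, the smaller TFIIE subunit, was at 72.2, 76.8 and 69.3 CPM with shMed4 #1, at 74.9, 67.7 and 70.4 CPM with shMed4 #4, and at 63.3, 58.4 and 62.4 CPM in NTC. All 6 hairpin libraries exceeded the NTC libraries. The Gtf2e2 log2 change was 0.25 with shMed4 #1 (edgeR adjusted p = 0.00257, SE 0.07) and 0.21 with shMed4 #4 (edgeR adjusted p = 0.007, SE 0.07), and with the neighbours' shift removed the shMed4 #4 value was 0.03 (edgeR adjusted p = 0.69). Gtf2e1, the larger subunit, was at 72.4, 66.4 and 68.2 CPM with shMed4 #4, against 62.3, 59.0 and 59.9 CPM with shMed4 #1 and 60.3, 61.2 and 61.5 CPM in NTC. It rose with shMed4 #4 (log2 change 0.18, edgeR adjusted p = 0.0176, SE 0.06) and differed between the hairpins by 0.19 (edgeR adjusted p = 0.0207, SE 0.06); without shMed4 #4 replicate 1 these were 0.15 (edgeR adjusted p = 0.0761) and 0.16 (edgeR adjusted p = 0.092). The difference was also lost without shMed4 #1 replicate 2 (0.18, edgeR adjusted p = 0.0721) or shMed4 #1 replicate 3 (0.19, edgeR adjusted p = 0.063). With the neighbours' shift removed, Gtf2e1 over NTC was 0.02 with shMed4 #4 (edgeR adjusted p = 0.801).

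TFIIA, which stabilises the TATA-binding protein on DNA, and TFIIF, which escorts the polymerase to the promoter, gave no call. Gtf2a1 and Gtf2a2 had log2 changes of 0.05 and 0.09 with shMed4 #1, and of 0.00 and -0.03 with shMed4 #4. Gtf2f1 and Gtf2f2 had log2 changes of -0.10 and 0.21 with shMed4 #1, and of -0.05 and 0.08 with shMed4 #4, with standard errors of 0.06 and 0.12. Gtf2a1l, a germ cell relative of the large TFIIA subunit, fell under the filter on low counts: it had 7, 4 and 1 reads with shMed4 #1, 0, 0 and 1 reads with shMed4 #4, and 7, 12 and 14 reads in NTC. The NTC libraries held most of these reads. With the filter lifted, Gtf2a1l had an edgeR adjusted p of 0.0246 for shMed4 #1 against NTC and of 3.48e-07 for shMed4 #4 against NTC. The DESeq2 Wald test gave adjusted p of 0.135, which did not pass, and 0.00106 in the same order.

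In TFIID, 14 of 17 genes were tested. None rose and 2 fell with shMed4 #1, and 3 rose and 4 fell with shMed4 #4, or 14.3% called with shMed4 #1 and 50% with shMed4 #4, against 41.6% and 55.1% of all genes tested. The median log2 change was -0.013 with shMed4 #1 and -0.002 with shMed4 #4. Tbp, which encodes the TATA-binding protein, was at 81.1, 77.7 and 81.2 CPM with shMed4 #1, at 79.2, 82.3 and 88.1 CPM with shMed4 #4, and at 77.4, 76.6 and 87.8 CPM in NTC. The groups overlapped throughout, with log2 changes of -0.01 (edgeR adjusted p = 0.915, SE 0.06) for shMed4 #1 and 0.05 (edgeR adjusted p = 0.569, SE 0.06) for shMed4 #4. Taf1, the largest TAF and a scaffold of the complex, fell with shMed4 #4 (log2 change -0.18, edgeR adjusted p = 0.0161, SE 0.06), but not without shMed4 #4 replicate 1 (-0.09, edgeR adjusted p = 0.254) or NTC replicate 1 (-0.13, edgeR adjusted p = 0.119). Taf2, which contacts initiator DNA, rose with shMed4 #4 (0.16, edgeR adjusted p = 0.0142, SE 0.06), though its neighbours on chromosome 15 had a median of 0.38. With that removed, Taf2 passed as lower with shMed4 #4 (-0.22, edgeR adjusted p = 0.00149).

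Taf7 and Taf8 fell with both hairpins. Taf8, which helps bring Taf10 into the nucleus and joins the lobes of TFIID, was at 29.9, 33.8 and 28.5 CPM with shMed4 #1, at 34.3, 32.8 and 34.1 CPM with shMed4 #4, and at 39.8, 39.4 and 40.1 CPM in NTC. Every hairpin library was below every NTC library. The log2 change was -0.37 with shMed4 #1 (edgeR adjusted p = 3.08e-04, SE 0.08) and -0.24 with shMed4 #4 (edgeR adjusted p = 0.012, SE 0.08). The shMed4 #4 call was lost without shMed4 #4 replicate 2 (-0.21, edgeR adjusted p = 0.0562) and with the DESeq2 Wald test (-0.23, adjusted p = 0.0803). The neighbours of Taf8 on chromosome 17 had medians of 0.01 with shMed4 #1 and 0.09 with shMed4 #4. Taf7, a partner and inhibitor of Taf1, was at 19.0, 21.1 and 17 CPM with shMed4 #1, at 17.7, 16.9 and 19.6 CPM with shMed4 #4, and at 23.5, 21.1 and 25.2 CPM in NTC. Its log2 change was -0.29 with shMed4 #1 (edgeR adjusted p = 0.0246, SE 0.11) and -0.36 with shMed4 #4 (edgeR adjusted p = 0.004, SE 0.11). The shMed4 #1 call of Taf7 was lost without NTC replicate 1 (-0.28, edgeR adjusted p = 0.060), NTC replicate 3 (-0.23, edgeR adjusted p = 0.122) or shMed4 #1 replicate 3 (-0.21, edgeR adjusted p = 0.155). The DESeq2 Wald test also lost the shMed4 #1 call of Taf7 (-0.29, adjusted p = 0.113). With the neighbours' shift removed its values were -0.14 and -0.10, neither past the threshold.

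Taf4b, a TFIID subunit best known from the germline and a paralog of the broadly expressed Taf4, rose with shMed4 #4. It was at 18.8, 17.3 and 16.8 CPM with shMed4 #1, at 22.9, 22.6 and 22.4 CPM with shMed4 #4, and at 16.5, 14.2 and 13.3 CPM in NTC. The 3 groups did not overlap. The log2 change was 0.63 with shMed4 #4 (edgeR adjusted p = 6.32e-06, SE 0.11) and 0.26 with shMed4 #1 (edgeR adjusted p = 0.0597, SE 0.11), and the hairpins differed by 0.36 (edgeR adjusted p = 0.00735, SE 0.10). Its neighbours were near 0, at 0.06 with shMed4 #4 and 0.01 with shMed4 #1. Taf4 itself had log2 changes of 0.01 with shMed4 #4 and -0.15 with shMed4 #1, neither past the threshold. Of the summed level of Taf4 and Taf4b per kilobase, Taf4b made up 20.9 ± 0.79% with shMed4 #1, 23.3 ± 0.25% with shMed4 #4 and 16.6 ± 1.7% in NTC (SD, n = 3 each).

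Taf12, a histone-fold TAF that TFIID shares with the SAGA coactivator, had the highest level per kilobase of all 53 genes, with an NTC mean of 145 CPM. It was at 528, 501 and 492 CPM with shMed4 #4, against 607, 598 and 581 CPM with shMed4 #1 and 568, 615 and 578 CPM in NTC. It fell with shMed4 #4 (log2 change -0.21, edgeR adjusted p = 3.75e-04, SE 0.05) and differed between the hairpins by -0.23 (edgeR adjusted p = 3.57e-04, SE 0.05), and both calls were kept in all 18 alternatives. Taf10, another TAF shared with SAGA, was at 286, 253 and 255 CPM with shMed4 #4, against 231, 247 and 243 CPM with shMed4 #1 and 247, 233 and 249 CPM in NTC. Its log2 changes of 0.12 with shMed4 #4 (edgeR adjusted p = 0.0466, SE 0.05) and 0.14 between the hairpins (edgeR adjusted p = 0.0473, SE 0.05) dropped to 0.07 (edgeR adjusted p = 0.279) and 0.09 (edgeR adjusted p = 0.275) without shMed4 #4 replicate 1, and 45.9% of its exon bases lie opposite Ilk. The Taf10 calls were also lost without NTC replicate 1, NTC replicate 2 or shMed4 #1 replicate 3, and the difference without shMed4 #1 replicate 1, at values of 0.10 to 0.15. With the neighbours' shift removed they were 0.04 (edgeR adjusted p = 0.551) with shMed4 #4 over NTC and 0.08 (edgeR adjusted p = 0.277) between the hairpins. Taf3, Taf5, Taf6, Taf11 and Taf13 passed in no comparison, with log2 changes between -0.13 and 0.12 for either hairpin. With its neighbours' shift of -0.45 removed, Taf3 was at 0.43 with shMed4 #4 (edgeR adjusted p = 1.59e-04).

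The other TFIID genes had too few reads to test. Taf7l, the testis relative of Taf7, had 6 reads over the 3 shMed4 #1 libraries, 14 over the shMed4 #4 libraries and 12 over the NTC libraries, and Taf9b had 0 reads with shMed4 #1, 2 with shMed4 #4 and 7 in NTC. Taf9 had 4 reads with shMed4 #1, 1 with shMed4 #4 and 6 in NTC, but 73.8% of its exon bases are shared on the same strand with Ak6, which had 344 reads with shMed4 #1, 325 with shMed4 #4 and 346 in NTC, and the files count reads that fall on more than 1 gene apart, as ambiguous. The few Taf9 reads therefore do not give its level.

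The genes for Taf5l and Taf6l, relatives of Taf5 and Taf6 that sit in SAGA in place of the TFIID proteins, met the naming rule and moved in opposite directions. Their TFIID counterparts Taf5 and Taf6 passed in no comparison. Taf5l had the largest rise among the 49 tested genes, with shMed4 #4: it was at 46.6, 48.5 and 49.2 CPM with shMed4 #1, at 70.0, 66.4 and 68.3 CPM with shMed4 #4, and at 39.2, 40.7 and 40.3 CPM in NTC. The 3 groups were well separated. Its log2 change was 0.27 with shMed4 #1 (edgeR adjusted p = 0.00276, SE 0.07) and 0.77 with shMed4 #4 (edgeR adjusted p = 3.68e-12, SE 0.07), or 70.4% above NTC with shMed4 #4, and the hairpins differed by 0.50 (edgeR adjusted p = 1.71e-07, SE 0.07). Neighbours of Taf5l near the end of chromosome 8 had medians of 0.19 with shMed4 #1 and 0.40 with shMed4 #4, and with these removed its values were 0.08 (edgeR adjusted p = 0.45) and 0.37. Of its transcript, 23.2% has a near-identical copy elsewhere.

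Taf6l was at 20.6, 19.96 and 19.1 CPM with shMed4 #1, at 21.2, 15.9 and 20.1 CPM with shMed4 #4, and at 23.1, 24.4 and 27.2 CPM in NTC. Every hairpin library was below every NTC library. Its log2 change was -0.33 with shMed4 #1 (edgeR adjusted p = 0.0114, SE 0.11) and -0.39 with shMed4 #4 (edgeR adjusted p = 0.00227, SE 0.11). The shMed4 #1 call was lost without NTC replicate 3 (-0.26, edgeR adjusted p = 0.0787) or shMed4 #1 replicate 3 (-0.30, edgeR adjusted p = 0.0508), and with the DESeq2 Wald test (-0.32, adjusted p = 0.0635). With the neighbours' shift removed, the shMed4 #1 value of Taf6l was -0.23 (edgeR adjusted p = 0.0938). Of the summed level of Taf6 and Taf6l per kilobase, Taf6l made up 22.1 ± 0.11% with shMed4 #1, 20.9 ± 3.0% with shMed4 #4 and 27.3 ± 2.1% in NTC (SD, n = 3 each). For Taf5l the share of the Taf5 and Taf5l sum was 59.8 ± 5.9% with shMed4 #1, 69.2 ± 2.0% with shMed4 #4 and 55.7 ± 1.3% in NTC (SD, n = 3 each). The promoters of Taf5l, the largest rise, and Taf8, which fell with both hairpins, are printed with the same window and marks as above.
Taf5l (chr8:124021408-124021557, minus strand): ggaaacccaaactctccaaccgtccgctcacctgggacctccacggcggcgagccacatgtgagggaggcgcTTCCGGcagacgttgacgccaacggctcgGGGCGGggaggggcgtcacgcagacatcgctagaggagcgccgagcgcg
Taf8 (chr17:47502302-47502451, minus strand): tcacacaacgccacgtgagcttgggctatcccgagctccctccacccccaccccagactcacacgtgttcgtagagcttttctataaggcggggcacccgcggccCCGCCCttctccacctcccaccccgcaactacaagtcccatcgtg
Taf5l had an ETS core 88 to 83 bases and a GC box 59 to 54 bases before its start. Taf8 had a single GC box, on the opposite strand, 55 to 50 bases before its start.

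TFIIH opens promoter DNA with its helicases and phosphorylates the polymerase tail with its kinase module. In the 7-subunit core, 2 genes rose and none fell with each hairpin (28.6% called, against 41.6% of all genes tested with shMed4 #1 and 55.1% with shMed4 #4). Both shMed4 #1 calls, Gtf2h3 and Gtf2h5, were lost when single libraries were left out. Gtf2h5, the smallest subunit, which stabilises the complex, was at 26.1, 28.3 and 27 CPM with shMed4 #1, at 33.1, 30.0 and 26.4 CPM with shMed4 #4, and at 23.3, 22.1 and 23.8 CPM in NTC. All 6 hairpin libraries were above NTC. Its log2 change was 0.23 with shMed4 #1 (edgeR adjusted p = 0.0477, SE 0.10) and 0.37 with shMed4 #4 (edgeR adjusted p = 0.0011, SE 0.09). The shMed4 #4 call was kept in all 18 alternatives, while the shMed4 #1 call was lost in 12, among them leaving out any one NTC library (0.20 to 0.26, edgeR adjusted p 0.0596 to 0.146), shMed4 #1 replicate 2 (0.20, edgeR adjusted p = 0.141), shMed4 #1 replicate 3 (0.24, edgeR adjusted p = 0.0839) or shMed4 #4 replicate 2 (0.24, edgeR adjusted p = 0.0526).

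Gtf2h3 and Gtf2h4, structural subunits of the core, differed between the hairpins in opposite directions. Gtf2h3 was at 26.5, 27.4 and 25 CPM with shMed4 #4, against 31.2, 33.3 and 31.7 CPM with shMed4 #1 and 28.5, 28.4 and 25.3 CPM in NTC, a difference between hairpins of -0.29 (edgeR adjusted p = 0.012, SE 0.09). Gtf2h4 was at 33.8, 35.1 and 31.0 CPM with shMed4 #4, against 26.1, 30.7 and 28.2 CPM with shMed4 #1 and 28.5, 28.0 and 27 CPM in NTC, a difference between hairpins of 0.23 (edgeR adjusted p = 0.0423, SE 0.09). Against NTC, Gtf2h3 rose with shMed4 #1 (0.23, edgeR adjusted p = 0.033, SE 0.09) and Gtf2h4 with shMed4 #4 (0.26, edgeR adjusted p = 0.0121, SE 0.09). Each of these 4 calls was lost when single libraries were left out: Gtf2h3 over NTC was 0.17 without NTC replicate 3 (edgeR adjusted p = 0.162), 0.20 without shMed4 #1 replicate 2 and 0.24 without shMed4 #1 replicate 3, and with the neighbours' shift removed it was 0.07 (edgeR adjusted p = 0.595). The Gtf2h3 difference was -0.26 without shMed4 #1 replicate 2 (edgeR adjusted p = 0.0525) and -0.25 without shMed4 #4 replicate 3. Gtf2h4 over NTC was 0.23 without shMed4 #4 replicate 2 (edgeR adjusted p = 0.0559), and its difference was 0.18 to 0.23 without shMed4 #1 replicate 1, shMed4 #1 replicate 3, shMed4 #4 replicate 1 or shMed4 #4 replicate 2. The helicase genes Ercc2 and Ercc3, and Gtf2h1 and Gtf2h2, passed in no comparison, with log2 changes between -0.17 and 0.12. Of the Ercc2 exon bases, 42.4% lie opposite other genes.

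In the kinase module, Cdk7, the kinase of the polymerase tail at initiation, was at 47.2, 46.2 and 42.9 CPM with shMed4 #1, at 42.8, 41.2 and 41.6 CPM with shMed4 #4, and at 48.8, 45.9 and 47.4 CPM in NTC. All shMed4 #4 libraries were below the 6 others, some only slightly. The log2 change was -0.18 with shMed4 #4 (edgeR adjusted p = 0.0391, SE 0.07) and -0.06 with shMed4 #1 (edgeR adjusted p = 0.543, SE 0.07). The Cdk7 call was lost in 9 of the 18 alternatives, including without NTC replicate 1 (-0.15), NTC replicate 3 (-0.18) or any one shMed4 #4 library (-0.18 to -0.16), and its value was 0.09 with the neighbours' shift removed. Mnat1, the assembly factor of the module, was at 40.2, 36.5 and 36.3 CPM with shMed4 #4, against 44.9, 44.5 and 41.8 CPM with shMed4 #1 and 40.2, 41.7 and 39.0 CPM in NTC. It differed between the hairpins by -0.21 (edgeR adjusted p = 0.0333, SE 0.08), which was lost in 8 of the 18 alternatives, with values of -0.20 to -0.18 without shMed4 #1 replicate 1, shMed4 #1 replicate 2, shMed4 #4 replicate 2 or shMed4 #4 replicate 3, and -0.04 (edgeR adjusted p = 0.764) with the neighbours' shift removed. Ccnh, the cyclin partner, passed only for the average of both hairpins (-0.15, edgeR adjusted p = 0.0479, SE 0.06), a call lost in 13 of the 18 alternatives, among them leaving out replicate 1 or 2 of NTC, of shMed4 #1 or of shMed4 #4 (-0.15 to -0.12); with the neighbours' shift removed the value was 0.19.

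P-TEFb releases paused polymerase by phosphorylating the tail and the pausing factors. Its kinase gene Cdk9 was at 43.2, 51.2 and 48.6 CPM with shMed4 #1, at 50.6, 48.2 and 54.4 CPM with shMed4 #4, and at 55.0, 59.5 and 55.4 CPM in NTC. Every hairpin library was below the NTC libraries, the closest by less than 1 CPM. Cdk9 fell with shMed4 #1 (log2 change -0.25, edgeR adjusted p = 0.00666, SE 0.07), and with shMed4 #4 it was at -0.15 (edgeR adjusted p = 0.0851, SE 0.07). The shMed4 #1 call was lost without shMed4 #1 replicate 1 (-0.18, edgeR adjusted p = 0.0625), and its value was -0.06 with the neighbours' shift of -0.19 removed. The cyclin genes Ccnt1 and Ccnt2 passed in no comparison, with log2 changes of 0.05 and -0.04 for shMed4 #1 and 0.08 and 0.01 for shMed4 #4. With the neighbours' shift removed, Ccnt1 was at -0.17 with shMed4 #1 (edgeR adjusted p = 0.0216) and -0.26 with shMed4 #4 (edgeR adjusted p = 2.35e-04). Ccnt2 made up 34.1%, 34.4% and 35.5% of the summed cyclin level per kilobase with shMed4 #1, with shMed4 #4 and in NTC.

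Between the hairpins, 15 of the 49 genes differed (30.6%, against 28.0% of all genes tested), 9 higher (background 14.2%) and 6 lower (background 13.9%) with shMed4 #4. Without shMed4 #1 replicate 3 or shMed4 #4 replicate 1, 5 were higher, and with the local shift removed 10 were higher and 3 lower. The share of these genes that differed was thus close to that of all genes tested. Of the 15 differences, 7 were kept in all 18 alternatives, those of Polr2a, Polr2e, Polr2f, Polr2h, Taf4b, Taf5l and Taf12. The differences of Gtf2b and Polr2c were lost only with the local shift removed.

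The change of a gene and that of its chromosomal neighbours went together across the set. Pearson's r between them over the 49 genes was 0.582 with shMed4 #1 (Spearman's rho 0.508) and 0.66 with shMed4 #4 (rho 0.639), as a description with no test, since all points come from the same libraries. The same values were not computed over all genes tested, so they are not given as particular to this set. The neighbours' median was 0.3 or more in size for 1 gene with shMed4 #1, Polr2c, and for 7 genes with shMed4 #4. With this shift entered as an offset, 5 of the 14 calls with shMed4 #1 kept their direction and passed, those of Polr2a, Polr2b, Polr2l, Gtf2e2 and Taf8. With shMed4 #4, 10 of the 24 did, those of Polr2a, Polr2f, Polr2i, Taf4b, Taf8, Taf12, Taf5l, Taf6l, Gtf2h4 and Gtf2h5. Some genes passed only with the offset, among them Tbp (0.21 with shMed4 #4, edgeR adjusted p = 0.00667), Polr2g (0.24 with shMed4 #1, edgeR adjusted p = 0.0103, and 0.20 with shMed4 #4, edgeR adjusted p = 0.0272) and Gtf2a2 (-0.22 with shMed4 #4, edgeR adjusted p = 0.00645). Counting every call under the offset, 6 of the 49 genes were higher and 5 lower with shMed4 #1. With shMed4 #4 these were 13 and 8. Over all genes tested, calls went from 5966 to 4934 with shMed4 #1 and from 7895 to 7107 with shMed4 #4. Why the genes moved with their neighbours was not tested.

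**Figure D4:**
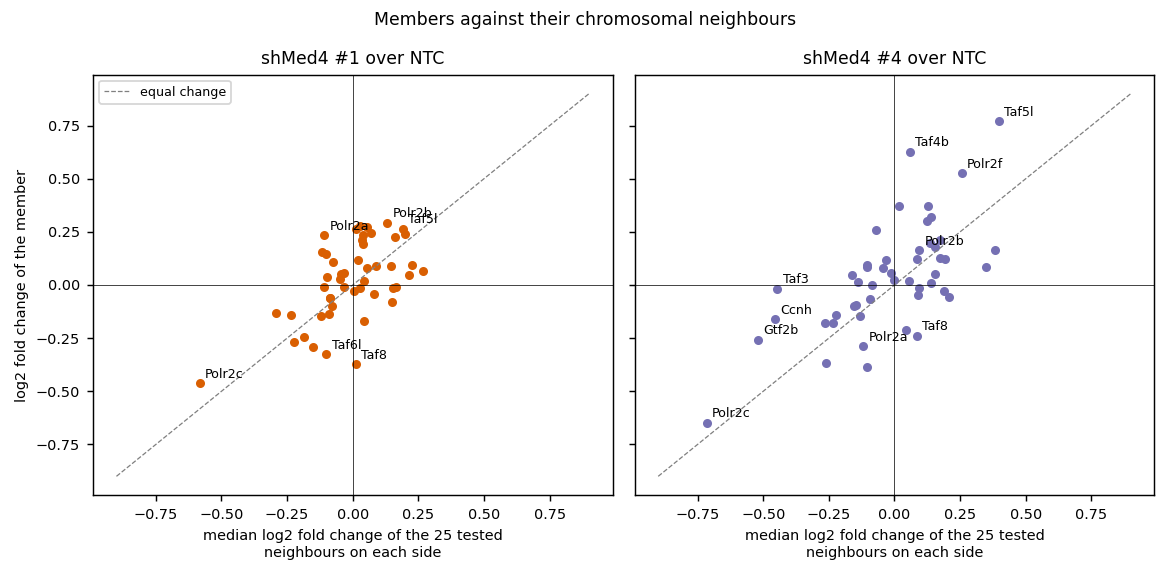
Log2 fold change of each of the 49 genes against the median of the 25 tested genes on each side of it, for shMed4 #1 over NTC (left) and shMed4 #4 over NTC (right), with a dashed line of equal change. Polr2c lies near the line at the lower left in both panels, and with shMed4 #4 Taf4b lies far above the line while Taf3, Ccnh and Gtf2b lie above it at the left.

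Genes that work beside the polymerase were read from lists of their own. For the average of both hairpins, 53.3% of all genes tested passed, 26.8% higher and 26.5% lower, while of the 49 genes above 17 passed (34.7%), 10 higher and 7 lower. The median log2 change for this average was 0.024 over the 49 genes and -0.012 over all genes tested. Of 33 tested elongation and pausing genes, 11 rose and 10 fell (median 0.088). The genes with the smallest adjusted p were Mllt3 (log2 change 0.59, edgeR adjusted p = 4.98e-13), Mllt1 (0.49, edgeR adjusted p = 1.30e-09) and Aff1 (0.40, edgeR adjusted p = 2.06e-08), which rose, and Hexim2, an inhibitor of P-TEFb, which fell (-0.83, edgeR adjusted p = 1.05e-07). Aff1, Mllt1 and Mllt3 encode parts of the super elongation complex. In the same complex Aff4 fell (-0.11, edgeR adjusted p = 0.0346), as did Ell (-0.22, edgeR adjusted p = 0.00558), while Ell2 rose (0.29, edgeR adjusted p = 0.00154). Of 15 genes for phosphatases of the polymerase tail and for polymerase assembly, 3 rose and 6 fell (median -0.054), with the phosphatase gene Ctdsp2 at -0.61 (edgeR adjusted p = 1.30e-12), its relative Ctdspl2 at -0.33, the tail-binding Rprd2 at -0.24 and the assembly GTPase Gpn3 at 0.41.

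Among 19 subunits of polymerases I and III, 3 rose and 2 fell (median -0.053). Polr1a, the largest polymerase I subunit (0.27, edgeR adjusted p = 8.41e-06), and Crcp (0.23, edgeR adjusted p = 0.0267) rose, and Polr3b fell (-0.25, edgeR adjusted p = 0.00176), as did Polr3c (-0.14, edgeR adjusted p = 0.0464). Of 16 SAGA genes, 5 rose and 4 fell (median -0.055). Eny2 of the deubiquitinase module was at 0.36 (edgeR adjusted p = 7.07e-07) while Usp22, the deubiquitinase itself, was at -0.31 (edgeR adjusted p = 1.13e-05), and Kat2b, an acetyltransferase, was at 0.29. Of 12 tested relatives and regulators of the TATA-binding protein, 3 rose and 2 fell (median 0.018): Btaf1, which removes the protein from DNA, was at -0.42 (edgeR adjusted p = 4.41e-08), the polymerase III factor Bdp1 at -0.40, the paralog Tbpl1 at 0.33 and the repressor subunit Drap1 at 0.29. Of 12 excision repair partners of TFIIH, 2 rose and 5 fell (median -0.183), with Ercc1 at -0.36 (edgeR adjusted p = 3.52e-06), Ddb2 at -0.41 and the damage recognition gene Rad23b at 0.29 (edgeR adjusted p = 4.47e-06).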

How the data were processed

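The authors deposited, for each of 9 libraries, whole-number read counts per mouse gene. Per the submitters' processing notes these were made with STAR and HTSeq on mm10 (GRCm38); per the labels' protocols RNA was DNase-treated and sequenced on a BGISEQ-500. For versions, annotation release, strand setting and RNA selection, the sources used here give nothing. The 5 summary lines of each file were left out (no gene 49.5 to 51.6%, more than 1 gene 0.863 to 0.951%, not unique 10.5 to 11.6%). No molecular identifiers are recorded, so depth sets counting error only.

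Gene IDs were matched to GENCODE M21, which named 55154 of 55335. Counts were fitted over all 9 libraries with edgeR 4.0.16 (R 4.3.3, limma 3.58.1; TMM factors 0.969 to 1.03, filterByExpr with a minimum count of 10, quasi-likelihood test, Benjamini-Hochberg adjustment over 14335 genes, threshold 0.05), which was tested on simulated data. The contrasts were each hairpin minus NTC, their mean minus NTC, and shMed4 #4 minus shMed4 #1. CPM uses TMM-scaled library sizes, and values per kilobase use the joined length of all annotated exons of a gene. Each log2 change over its standard error is the signed root of the F statistic. The local shift is the median log2 change of the 25 tested genes on each side, entered as an offset in one alternative. Overlaps with other genes come from GENCODE exons, and near-identical copies are transcript stretches of at least 100 bases at 98% identity.

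Other settings tried were DESeq2 1.42.0 (its size factors and its Wald test), upper-quartile factors, no filter, a filter of 1 CPM in 3 libraries, only the libraries compared, a replicate block, an adjusted p of 0.01 and each library left out. No replicate pair was identical within counting noise. The genes and lists were chosen with earlier results of these data known. Values in every library are given for Med4, for genes passing in the same direction with both hairpins or between hairpins, and for Polr2a, Tbp, Cdk7 and Cdk9; Polr2i, and Polr3c from a further list, were added after their values were seen. From each further list, up to 4 genes with the smallest adjusted p are named; some are not reported here.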

Additional observations from a re-analysis of the deposited data

Results flagged for a closer look

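For 15 of the 49 tested genes, the change with shMed4 #4 differed from that with shMed4 #1 when the hairpin groups were compared directly (edgeR adjusted p of 0.05), as it did for 28.0% of all genes tested. The log2 difference, shMed4 #4 minus shMed4 #1, was -0.52 for Polr2a, -0.19 for Polr2c, 0.35 for Polr2e, 0.29 for Polr2f, 0.40 for Polr2h and 0.13 for Polr2m. It was -0.41 for Gtf2b, 0.36 for Taf4b, 0.14 for Taf10, -0.23 for Taf12 and 0.50 for Taf5l. In TFIIE and TFIIH it was 0.19 for Gtf2e1, -0.29 for Gtf2h3, 0.23 for Gtf2h4 and -0.21 for Mnat1. For Med4 itself this difference was 0.67, and its part in these differences was not tested.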

How the results depend on the processing

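Of 70 called values of single genes over the 4 contrasts, 25 were kept under all alternatives and 45 were lost in at least 1. Reversals, counted where a value passed before or after the change of setting, occurred only when the local chromosomal shift was removed. They were Ccnt1 (-0.17 with shMed4 #1, -0.26 with shMed4 #4, -0.22 for the mean), Polr2c (0.12, 0.07 and 0.09 in the same order), Taf2 (-0.20, -0.22 and -0.21), Taf3 (0.43 with shMed4 #4, 0.30 mean), Gtf2b (0.26, 0.27), Taf1 (0.06, 0.00), Polr2m (-0.05, -0.11), Ccnh (0.29, 0.19, and 0.20 between hairpins), Cdk7 (0.09 with shMed4 #4) and Gtf2a2 (-0.14 mean). The values listed for Ccnt1, Taf3 and Gtf2a2 were not called before and passed only with the shift removed. So did Taf2 with shMed4 #1, the Gtf2b and Polr2m means, and Ccnh with shMed4 #4 and between hairpins. The called values of Taf2 and Gtf2b and the called Ccnh mean then passed in the opposite direction. Those of Polr2c, Taf1, Cdk7 and Polr2m no longer passed. With the local shift removed, 3 genes were lower between hairpins (6 in the report). The 2 that then rose with both hairpins, Gtf2b and Polr2g, were not among the 6 in the report. At an adjusted p of 0.01, 5 genes were higher with shMed4 #1, 8 with shMed4 #4 and 5 between hairpins, while 2 rose and 1 fell with both. Upper-quartile factors gave 9 higher with shMed4 #4 and 3 rising with both. The DESeq2 Wald test gave 1 falling with both and lost 23 single calls. The causes were not tested.

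Leaving out single libraries gave 5 to 8 higher with shMed4 #1, 5 to 9 higher between hairpins, and 3 to 6 rising and 2 to 6 falling with both. Same-numbered residuals of different groups correlated between -0.059 and 0.035, and different-numbered ones between -0.075 and 0.065. No effect shared by replicate number was seen, which cannot tell whether the libraries were handled in matched sets. The replicate block gave 7 higher and 6 lower with shMed4 #1, 14 and 9 with shMed4 #4, and 7 and 6 between hairpins, and lost 6 single calls. At these depths, genes under about 10 reads per library (Taf9, Taf9b, Taf7l and Gtf2a1l) were not tested.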
